A study of Mus musculus with 12 samples.

Results

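The clone KO1 was compared with wild-type (WT) cells in 3 RNA sequencing libraries each, 6 of the 12 libraries of the series. A gene entered the comparison where its normalized read count was at least 10 in at least 3 of these 6 libraries, which left 14448 of 54392 annotated genes, and 29335 genes had 0 reads in all 6. The filter edge was not sharp: the third-highest value lay between 10 and 12 in 324 genes just inside it and between 8 and 10 in 425 genes just outside it. All cells were NIH-3T3, an established line of mouse fibroblasts. KO1 carried the genotype Crls1KO1. It grew from 1 cell that was sorted for green fluorescence after transfection with a plasmid encoding Cas9 and a guide RNA against Crls1, and the submitters checked the loss of Crls1 alleles by sequencing genomic DNA. KO1 is therefore 1 clone, and the loss of Crls1 and any other trait of that founder cell cannot be told apart in this contrast. WT cells carried the genotype Crls1WT, and the labels do not say whether they too were transfected, sorted or cloned. Both groups were grown in DMEM with glucose, glutamine, foetal bovine serum, antibiotics, sodium pyruvate and uridine. The clones KO2 and KO3, with 3 libraries each, were made in the same way. They were used here only for the shared estimate of spread and where they are named. Total RNA was sequenced after removal of cytoplasmic rRNA, with random hexamers as primers. Nothing states that the 3 libraries of a group came from separate cultures, so p-values measure only the spread between these libraries, which may be technical.

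Crls1 encodes cardiolipin synthase, which joins phosphatidylglycerol with CDP-diacylglycerol on the inner mitochondrial membrane. Its product cardiolipin is found almost only in mitochondria, where respiratory complexes, carriers and the protein import machinery bind it. The title of the series asks whether the lipid is needed for mitochondrial ribosomes to reach the membrane and make protein. NIH-3T3 cells express collagens and other matrix genes and are used as a fibroblast model.

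Recovered depth was 33300033 to 35845512 reads in KO1 libraries and 32929242 to 41608389 in WT libraries. Across genes, which are not independent replicates, log2 values correlated at r = 0.990 to 0.991 between KO1 libraries, 0.983 to 0.991 between WT libraries and 0.911 to 0.920 between the groups. WT replicate 1 was the most distant WT library: the SD of its log2 differences was 0.57 and 0.589 against WT replicates 2 and 3, which differed from each other by 0.423, while KO1 pairs gave 0.387 to 0.404. Noncoding RNAs of the long intergenic, antisense, processed transcript, bidirectional promoter, sense intronic and sense overlapping types were summed. They took 0.941% to 0.999% of the normalized total in KO1 and 1.71%, 1.11% and 1.56% in WT replicates 1, 2 and 3. The predicted gene Gm42418, described below, varied widely between WT libraries, and the part of single genes in this share was not tested. Of 12 fibroblast markers 9 passed the filter, with a summed level of 801494.8 to 838360.7 in KO1 and 830200.2 to 911767.5 in WT. Fap and Lum, markers of primary fibroblasts, had 0 reads in both groups, and Dcn had 0, 0 and 1.97 in KO1 and 0 in each WT library.

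Crls1 (chr2:132846666-132866785, GRCm38, plus strand) was lower in KO1 but was not at 0. Its normalized read count was 209, 209 and 213 in KO1 libraries, against 739.7, 873 and 834 in WT libraries. The groups did not overlap, and the log2 difference was -1.95 (SE 0.09, adjusted p 3.00e-09), here and below from limma on log2(value + 1) as KO1 minus WT. The labels do not place the guide within the gene, and these counts cover the whole transcript and not the edited site. In the authors' deposited table the log2 fold change was -1.9466.

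The transcriptomes differed widely. At an adjusted p below 0.05, 3928 genes were higher (27.2% of those tested) and 3810 were lower (26.4%) in KO1, 53.6% together. In 8757 genes (60.6%) no KO1 library overlapped a WT library. Of the genes called, 1495 higher and 2075 lower ones differed by under 0.5 on the log2 scale. A difference of at least 2-fold was found in 1422 genes that were higher (9.84%) and 681 that were lower (4.71%), 14.6% together. With quantile normalization this split was 1175 higher and 1092 lower. Large differences were mostly in weakly expressed genes: among 3277 genes with a mean under 100, 835 were at least 2-fold higher and 321 lower, while among 1484 genes with a mean of at least 5000 the counts were 28 and 44. The median difference over all genes was 0.01. The authors' deposited table called 3793 genes higher and 3805 lower at the same threshold, of which 3772 and 3727 were also called here in the same direction.

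**Figure D1:**
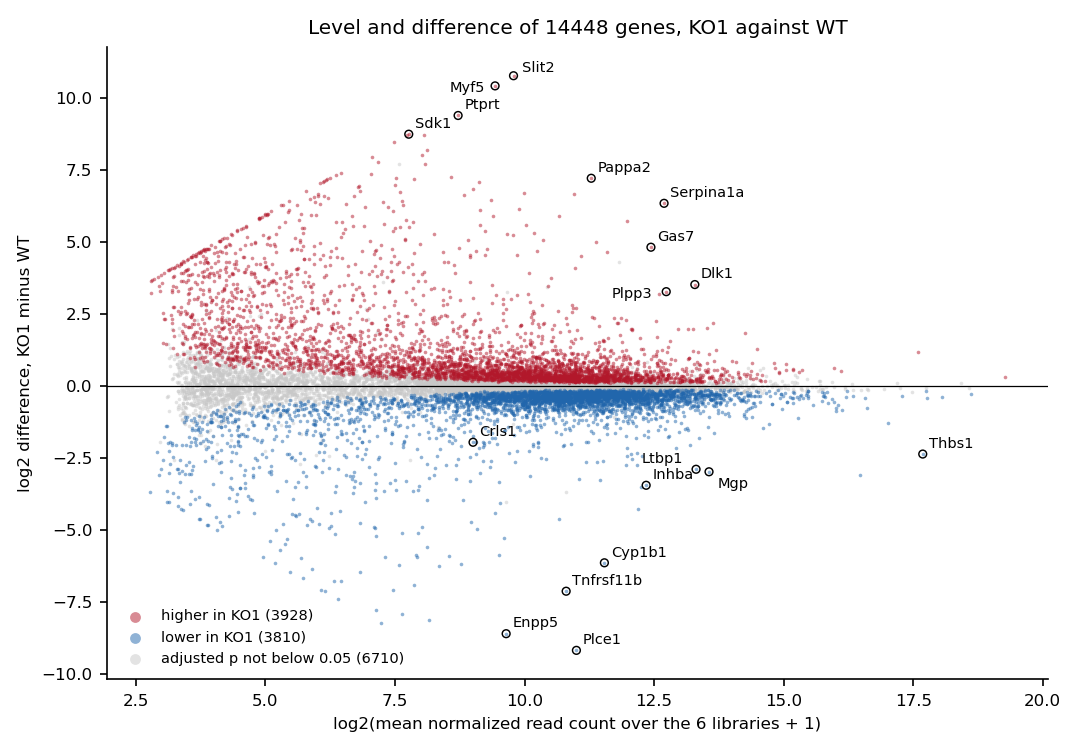
Each point is 1 of 14448 genes, with log2 of the mean normalized read count over the 6 libraries plus 1 on the x axis and the log2 difference of KO1 minus WT on the y axis. Red marks the 3928 genes called higher in KO1, blue the 3810 called lower and grey the 6710 others. The largest differences, Slit2 at 10.78 and Plce1 at -9.17, lie far from the mass of genes near 0.

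A set of genes was read in KO1 libraries and had no read at all in WT libraries. Counting genes with a mean of at least 100 over the libraries of the expressing group, 16 had 0 reads in WT and 17 more had 1 to 3 reads over the 3 WT libraries. Their level in KO1 is what passed them through the filter, so these counts are a description. Slit2, a secreted ligand of Robo receptors that steers axons and migrating cells, had 1948, 1694 and 1651 normalized reads in KO1, at least 1716-fold over the floor of 3 reads for WT. Myf5, a transcription factor of early muscle precursors, had 1345, 1377 and 1412 in KO1 and was at least 1344-fold higher. Sdk1, an adhesion molecule of the immunoglobulin family, had 476, 364 and 458, at least 422-fold. All 3 had 0 reads in each WT library. In KO2 and KO3, Slit2 averaged 0 and 0.71, Myf5 0 and 0.292, and Sdk1 63.0 and 52.9.

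The other members with 0 reads in WT, which were chosen for naming after their values were seen, include a receptor tyrosine kinase, Alk, with 135, 138 and 138 in KO1 (at least 133-fold). Popdc3, a membrane protein of muscle, had 139, 125 and 149 (at least 134-fold) and Tmem132d had 152, 140.4 and 142 (at least 141-fold). In KO2 and KO3, Alk averaged 12.6 and 42.0, Popdc3 5.28 and 4.96, and Tmem132d 0.586 and 0.585. The carboxylesterases Ces1d, Ces1f and Ces1g form a cluster of related copies on chromosome 8. Reads may be split among them, so the values of single copies are uncertain. Ces1f had 396, 335 and 340.3 and Ces1d 113, 106 and 105 in KO1, both with 0 reads in WT. In KO2 and KO3, Ces1f averaged 0.622 and 33.2 and Ces1d 0.622 and 5.04. Gm29216, a pseudogene on chromosome 1, also had 0 reads in WT, but its KO1 libraries spread from 33.2 to 731 and it was not called. It varied as widely in the other clones, at 4877 ± 4379 in KO2 and 2764 ± 4787 in KO3 (mean ± SD over 3 libraries). The source of this spread was not tested.

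Among genes with 1 to 3 WT reads were regulators of development and signalling. Irx1, a homeobox factor, had 552, 506 and 608 in KO1, against 1.18, 2.07 and 0 in WT, a ratio of 542 (95% counting interval 185 to 2632). Ednra, the endothelin A receptor, had 262, 329 and 270.5 in KO1, against 1.18, 0 and 0 in WT, a ratio of 839 (95% counting interval 150.2 to 33183). Ptprt, a receptor tyrosine phosphatase, had 884, 751 and 882 in KO1, against 0, 0 and 0.903 in WT, a ratio of 2456 (95% counting interval 440.4 to 97041). These bounds and intervals cover counting error only. The groups did not overlap in any of the 3. In KO2 and KO3, Irx1 averaged 0 and 0 and Ednra 0.630 and 0. Ptprt averaged 6.20 in KO2 but 724 in KO3, where it did not differ from KO1 (adjusted p 0.584).

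Of the genes expressed in WT, 5 had 0 reads in all KO1 libraries and 6 more had 1 to 3 reads. Lrch2, a leucine-rich repeat protein, had 345, 283 and 262 in WT and was at least 283-fold lower in KO1. Tgfbi, a matrix protein induced by TGF-beta, had 141, 178 and 181 in WT, at least 163-fold lower in KO1. Smarca1, the ATPase of an ISWI chromatin remodeller, had 176, 99.4 and 144 (at least 134-fold lower). Pigh, a subunit of the enzyme that starts synthesis of the glycosylphosphatidylinositol anchor, had 132, 134 and 134 (at least 129-fold lower), and Pxdc1 had 79.97, 90.1 and 140.0 (at least 102-fold lower). The WT libraries all lay far above 0 in these 5 genes, whose names apart from Lrch2 were picked after their values were seen. Lrch2, Pigh and Pxdc1 also averaged 0 in KO2 and in KO3. Tgfbi averaged 0.319 in KO2 and 0 in KO3, and Smarca1 5.21 in KO2 and 3.69 in KO3. The transcription factors Sall2 and Tbx4 were in the group with 1 to 3 KO1 reads. Sall2 had 0, 1.06 and 0 in KO1, against 270.5, 283 and 284 in WT, and Tbx4 had 1.07, 0 and 0.984 in KO1, against 163, 192 and 167 in WT. In KO2 and KO3, Sall2 averaged 1.22 and 0, Tbx4 0.319 and 0, C4bp 8.39 and 2.99 and Col6a6 7.40 and 1.30. The others of these 6 genes had more reads there, Grpr with means of 134 and 10.3 and Rgl3 with 389 and 258.

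**Figure D2:**
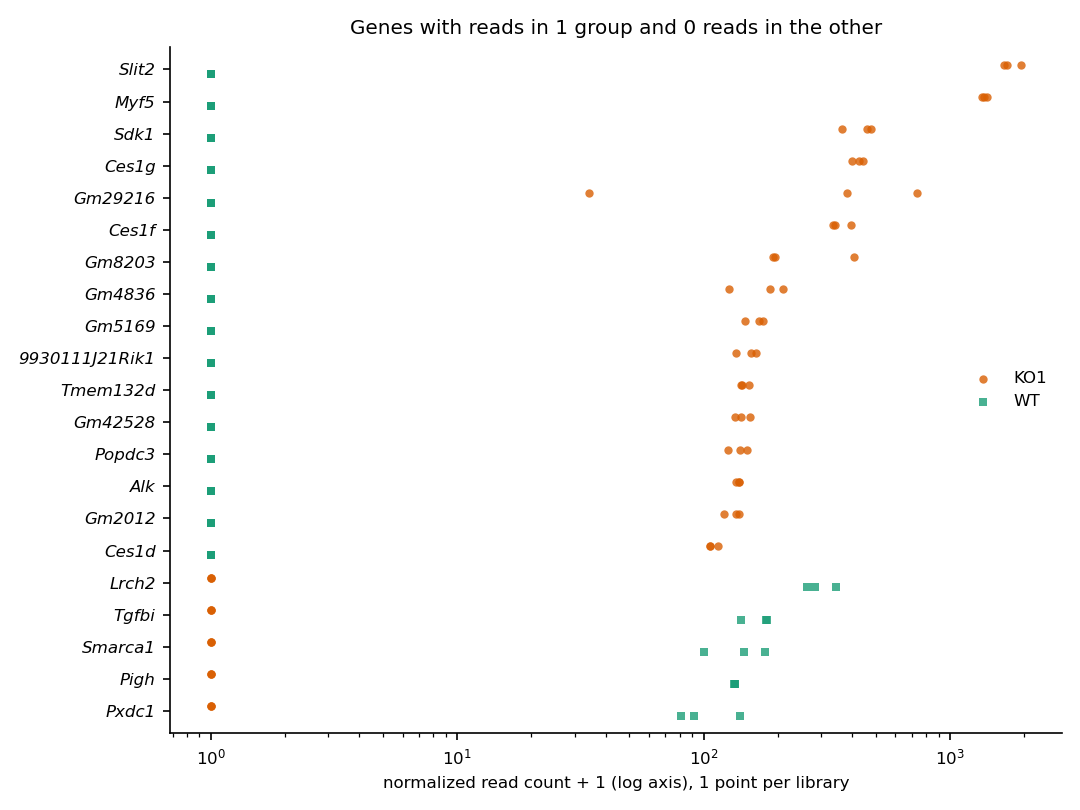
Normalized read counts plus 1 of the 21 genes with a mean of at least 100 in 1 group and 0 reads in the other, on a log axis with 1 point per library. For the 16 genes at the side of KO1 every WT point sits at 0 reads, and for Lrch2, Tgfbi, Smarca1, Pigh and Pxdc1 every KO1 point does.

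Among genes with reads in both groups, some that encode secreted or membrane proteins were far higher in KO1. Pappa2, a protease that cleaves insulin-like growth factor binding proteins, had 5669, 4815 and 4395 in KO1, against 42.3, 37.3 and 20.8 in WT, a log2 difference of 7.22 (SE 0.28, adjusted p 7.58e-10). Serpina1a, an inhibitor of elastase, had 13426, 12701 and 13079.6 in KO1, against 138, 163 and 179.7 in WT (6.35). Its copies Serpina1a to Serpina1e are near-identical, so the split among them is uncertain, but all 5 were called higher. Dlk1, an imprinted gene for a transmembrane protein that restrains fat cell differentiation, had 18397, 17803 and 18920.5 in KO1, against 1436, 1658 and 1685 in WT (3.53). Gas7 (4.83), Plpp3 (3.28), Slpi (3.22) and Ptx3 (2.02) rose too. No KO1 library overlapped a WT library in any of these genes.

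Losses among expressed genes were as large. Plce1, a phospholipase C, had 8.56, 3.17 and 7.87 in KO1, against 4534, 3782 and 3947 in WT, a log2 difference of -9.17 (SE 0.52, adjusted p 2.34e-08). Tnfsf18, a ligand of the tumour necrosis factor family, had 3.21, 0 and 0.984 in KO1, against 576, 552 and 575 in WT (-8.13). Abca3, a lipid transporter, had 1.07, 3.17 and 0.984 in KO1, against 387, 319.9 and 346 in WT (-7.09). In each, the lowest WT library was far above the highest KO1 library. The adhesion receptor Selp (-5.25), the signalling regulator Rgs16 (-5.59), the nucleotide sugar receptor P2ry14 (-5.85) and the acyltransferase Mboat1 (-6.21) fell as well. Of the abundant genes, Inhba, which encodes a subunit of activin, fell to 879.8, 919 and 833 in KO1, against 10209, 9054 and 9337 in WT (-3.44). Mgp, an inhibitor of calcification, fell to 2640.3, 2686 and 2747, against 16276, 24672 and 23397 in WT (-2.97). Gm42418 and Lars2 were called lower too, but their WT libraries spread from 40730 to 250022 and from 7314 to 26821.

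Gene lists were drawn up for 45 pathways and families and for 9 cell types, and each count below reads against 27.2% of all genes higher and 26.4% lower. Among lists with at least 11 tested members, the highest share in 1 direction was held by the interferon-stimulated genes on the higher side and by the enzymes of sterol synthesis and of DNA replication on the lower side.

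**Figure D3:**
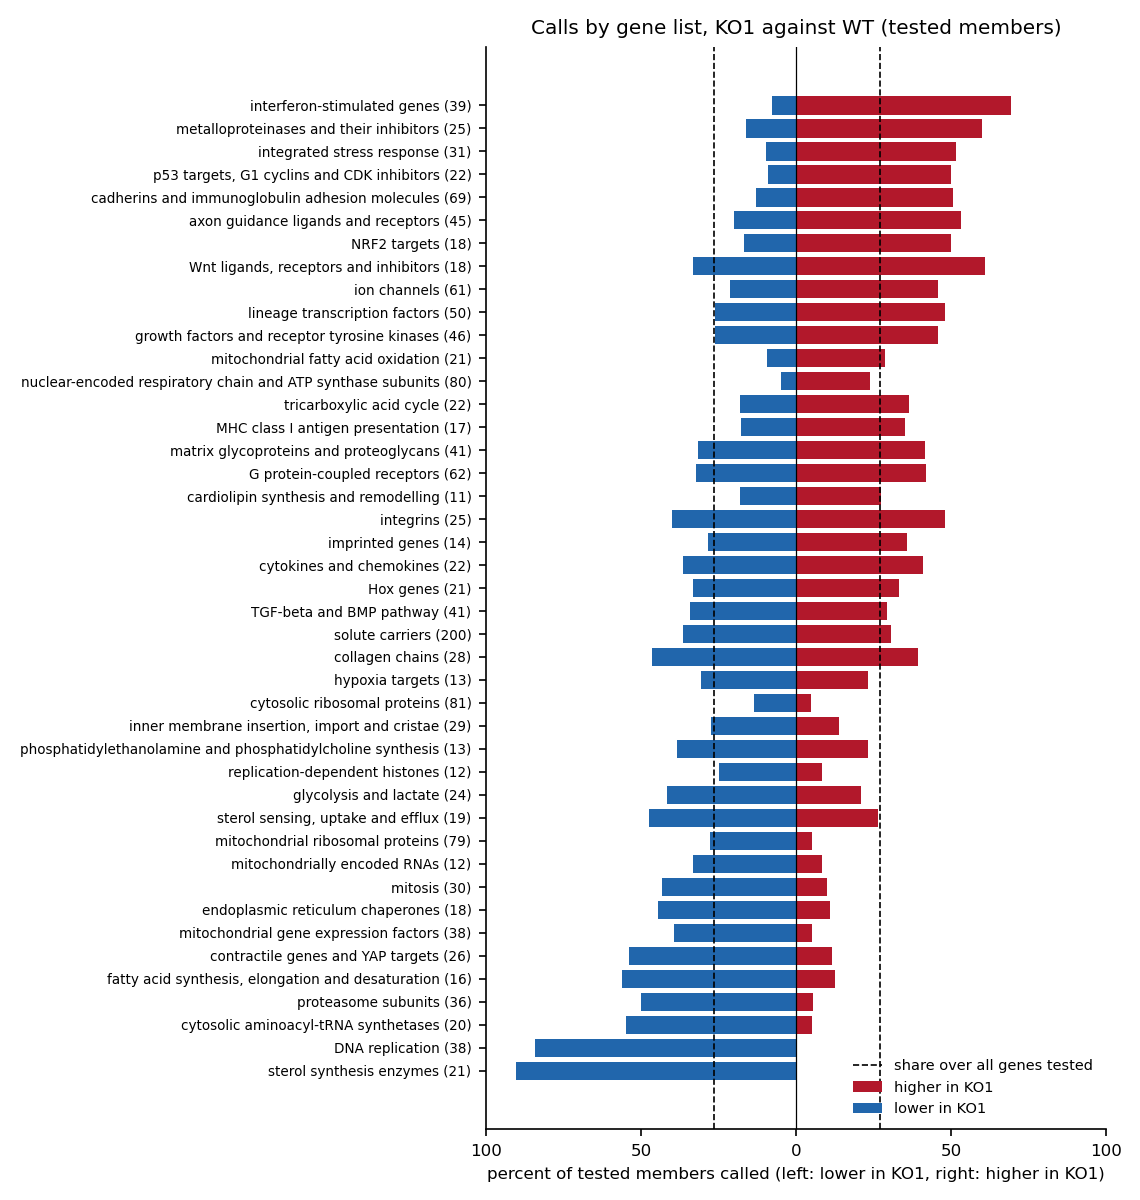
Percent of the tested members of each list with at least 11 such members that were called higher (right) or lower (left) in KO1, with dashed lines at the share over all genes tested, 27.2% higher and 26.4% lower. Sterol synthesis (19 of 21 lower) and DNA replication (32 of 38 lower) extend furthest to the left.

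Interferon-stimulated genes were mostly higher in KO1. Such genes encode antiviral effectors and sensors, and their promoters are bound by STAT and IRF factors through an interferon-stimulated response element. Of 39 tested members 27 rose, 3 fell and 9 did not pass the threshold, with a median difference of 0.90 against 0.01 over all genes. Of the 27, 18 were at least 2-fold higher, and no member was at least 2-fold lower. Leaving out any 1 library gave 24 to 26 higher and 3 to 4 lower. Several members lie in families of related genes (Irgm, Gbp, Ifit and Oas1). How alike these are was not measured, so the split of reads among the closest relatives is uncertain.

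Several members encode GTPases of families that act against intracellular parasites. Irgm1 had 1612, 1554 and 1542 in KO1, against 799, 771 and 759.5 in WT, a log2 difference of 1.01 (SE 0.06, adjusted p 2.33e-08). Ifi47 had 195, 201 and 187 in KO1, against 21.2, 18.6 and 14.4 in WT (3.37, SE 0.20, adjusted p 3.30e-08). Irgm2 had 185, 189 and 205 in KO1, against 39.98, 42.5 and 29.8 in WT (2.35, SE 0.18, adjusted p 3.22e-07). In all 3 genes every KO1 library lay above every WT library. Igtp (2.31), Gbp3 (3.22), Gbp6 (3.41) and Iigp1 (2.07) of the same families rose too.

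Sensors and other effectors moved in part. Trim30a, a regulator of innate signalling, had 3793, 4192 and 4174 in KO1, against 2449.7, 2153 and 2050.2 in WT (0.87, SE 0.07, adjusted p 8.07e-07). The ADP-ribosyltransferase Parp14 (5.54), the deISGylase Usp18 (2.30), Ifi44 (3.26), Ifit1 (2.01), Oas3 (2.29), Oas1g (3.07) and the tetherin gene Bst2 (1.28) rose. Samd9l, Ifit2 and Eif2ak2, the RNA-activated kinase PKR, fell by 0.50, 0.50 and 0.33. Isg15, the ubiquitin-like modifier, differed by -0.16 (adjusted p 0.408), Irf9 by 0.07 (adjusted p 0.615) and Stat2 by 0.14 (adjusted p 0.296).

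The core of the response element, GAAA followed by any 2 bases and a second GAAA, was sought on either strand in the window from 250 bases before to 50 after the start of each gene in RefSeq's promoter table (GRCm38.p6). It was present in 18 of the 30 listed genes with a promoter in the table (60%), against 387 of 10283 tested genes (3.76%). Such a share, here and in the lists below, describes promoters of the listed genes and does not measure pathway activity in KO1. The 18 hold 14 genes called higher, 1 called lower (Eif2ak2) and 3 not called (Stat2, Ifit3 and Isg15). The sites below belong to members that rose and show how the core is written on the strand of the gene, with the matched letters in capitals. Read from the opposite strand, the same core is TTTC, 2 bases and TTTC.
Irgm2 (chr11:58214908-58214927, plus strand): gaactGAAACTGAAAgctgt
Igtp (chr11:58199517-58199536, plus strand): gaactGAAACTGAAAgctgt
Gbp2 (chr3:142620599-142620618, plus strand): tttagTTTCACTTTCactgt
Gbp3 (chr3:142559994-142560013, plus strand): cacagTTTCAGTTTCtattt
Ifit1 (chr19:34640780-34640799, plus strand): ttcagTTTCACTTTCcagtc
Oas3 (chr5:120777720-120777739, minus strand): gaggaGAAAACGAAAgtgaa
Irgm2 and Igtp share the same 20 bases.

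The windows of Irgm1 (chr11:48871371-48871670, minus strand) and Ddx58 (chr4:40239776-40240075, minus strand) are shown whole because these members had the smallest adjusted p among those with a match. Each is written 5′ to 3′ on the strand of the gene, with the matches in capitals. Irgm1 has 2 matches that overlap, and Ddx58, which encodes the RNA sensor RIG-I, has 1 on the opposite strand just after its annotated start.
Irgm1: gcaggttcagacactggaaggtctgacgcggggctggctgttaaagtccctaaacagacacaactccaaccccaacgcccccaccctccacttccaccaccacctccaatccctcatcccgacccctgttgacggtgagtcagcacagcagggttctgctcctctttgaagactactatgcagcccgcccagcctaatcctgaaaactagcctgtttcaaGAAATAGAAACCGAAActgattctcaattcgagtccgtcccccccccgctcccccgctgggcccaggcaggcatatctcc
Ddx58: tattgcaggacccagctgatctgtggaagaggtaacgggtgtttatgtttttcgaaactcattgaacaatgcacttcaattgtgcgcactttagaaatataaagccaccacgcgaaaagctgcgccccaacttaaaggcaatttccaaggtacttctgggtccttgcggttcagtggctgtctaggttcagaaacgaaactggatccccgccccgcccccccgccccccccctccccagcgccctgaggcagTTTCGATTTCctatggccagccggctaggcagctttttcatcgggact
A match describes these letters and is not evidence of binding.

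Antigen presentation on MHC class I, which interferon also induces, was mixed, with 6 of 17 tested genes higher and 3 lower. The peptide transporter subunits Tap1 and Tap2 rose by 0.83 and 0.95, and the immunoproteasome subunit Psmb9 rose by 1.02. The classical heavy chain H2-K1 had 48.2, 35.9 and 23.6 in KO1, against 613, 1049 and 1224 in WT (-4.70). Tapbp fell by 0.53. Class I heavy chains have close relatives, so H2-K1 reads may in part be counted to other H2 genes. Irf1, a factor that drives many of these genes, rose by 0.37, and the light chain B2m fell by 0.33.

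**Figure D4:**
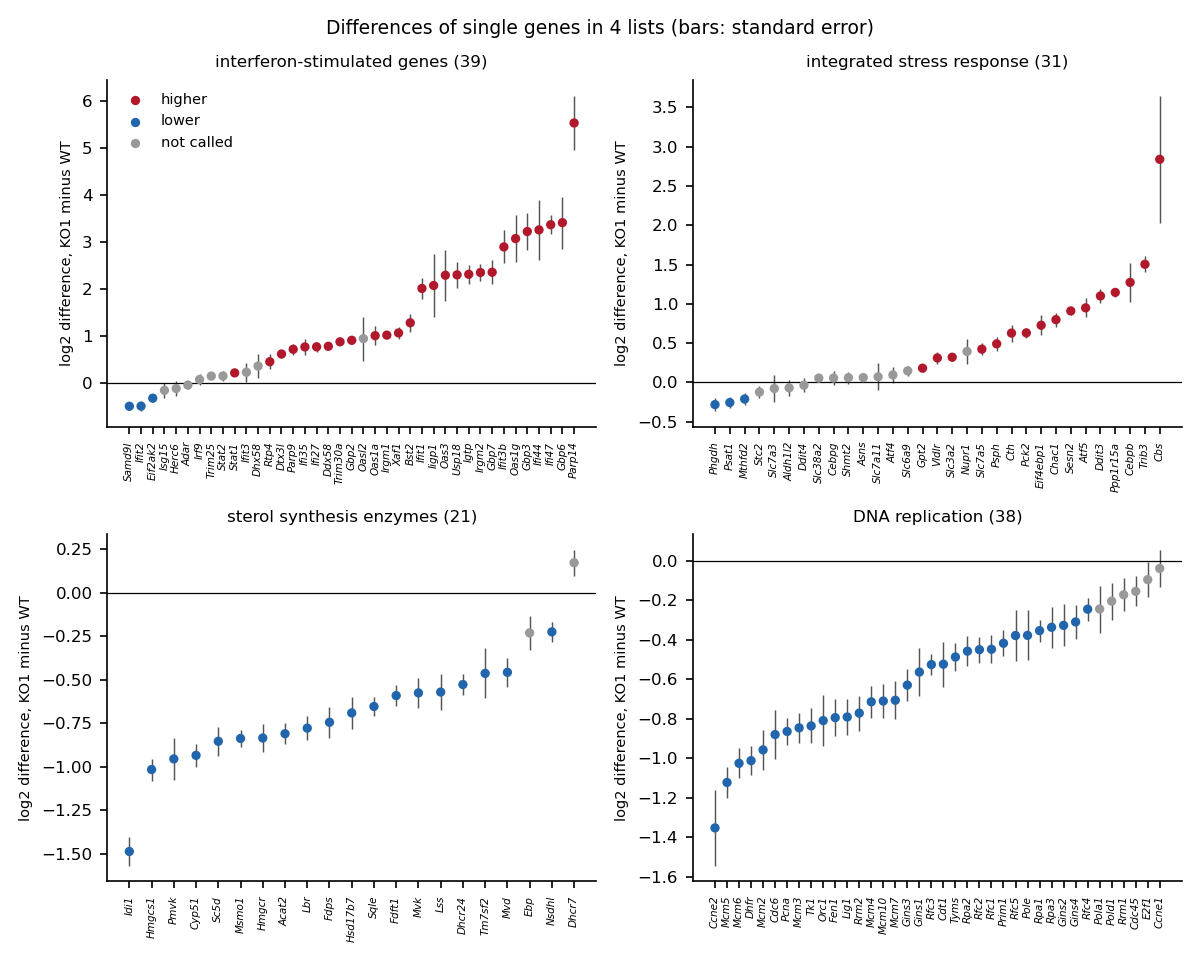
Log2 difference of KO1 minus WT (y axis, with bars for the standard error) for each tested member of 4 lists, ordered by value along the x axis, with colours for called higher, called lower and not called. Interferon-stimulated genes reach 5.54 (Parp14), while in the lists of sterol synthesis and DNA replication no member was called higher.

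Some neighbouring genes were high together. Runs of at least 4 tested genes in a row, each called and at least 2-fold different in the same direction, numbered 35. They held 186 of the 2103 genes that were called and at least 2-fold different, with 31 runs higher and 4 lower in KO1. The runs were defined by these differences, and their members were named after their values were seen, so the values are a description. A run of 10 genes at chr11:48826140-49135387 held Irgm1 and Ifi47 together with the GTPases Tgtp1 and Tgtp2. Tgtp2 had 353, 307 and 382 in KO1, against 5.88, 4.14 and 2.71 in WT. A run of 7 genes at chr5:105014150-105346472 held Gbp4, Gbp6, Gbp8, Gbp9, Gbp10 and Gbp11, of which Gbp4 had 220.5, 236 and 194 in KO1, against 0, 1.04 and 1.81 in WT. Other runs held the Serpina1 copies (7 genes at chr12:103728156-103989957) and Serpinb9 copies (7 genes at chr13:33027416-33671581). The longest, 15 genes at chr1:84839841-85514604, consisted largely of predicted models and pseudogenes, and C130026I21Rik in it had 4088, 4146 and 4229.7 in KO1, against 203, 175 and 167 in WT. Genes of the same families lie together in these runs, and how alike they are was not measured. Reads may be split among close copies, so a run may hold fewer independent genes than it counts.

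The DNA sensor Aim2 and its relative Ifi209 were in a further run on chromosome 1. Aim2 had 3951, 3743 and 3727 in KO1, against 1799, 1506 and 1527 in WT. Igf2, an imprinted growth factor, and Igf2os were in a run at chr7:142591744-143019644, where Igf2 had 233, 237 and 238 in KO1, against 0, 4.14 and 5.42 in WT. Igf2os runs antisense to it, and as strandedness is not stated their reads cannot be told apart. The run of 5 lower genes at chr2:117857291-118475234 held Thbs1, Fsip1, Gpr176, Eif2ak4 and a predicted gene. Thbs1, which encodes the matrix protein thrombospondin 1, had 71494, 68219.7 and 66750.5 in KO1, against 370662, 340389 and 345608 in WT, and Gpr176 had 412, 371 and 420.0 in KO1, against 2439, 2247 and 2282 in WT. Eif2ak4 encodes GCN2, the kinase that senses uncharged tRNA, and had 1381, 1402 and 1378 in KO1, against 7543, 6871 and 6997 in WT, a log2 difference of -2.36 (SE 0.07, adjusted p 1.12e-10). Every KO1 library lay far below every WT library in these 3 genes.

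Enzymes of sterol synthesis fell nearly throughout. These genes are driven by SREBP2, which is cleaved when membrane sterol is low. Of 21 tested, 19 fell, none rose (1 without WT replicate 1) and 2 did not pass the threshold, with a median of -0.69. Idi1, which isomerises isopentenyl diphosphate, had 3585, 3562 and 3364 in KO1, against 10568, 9485 and 9466 in WT (-1.49, SE 0.08, adjusted p 1.50e-08). Hmgcs1, which forms HMG-CoA, had 5679.9, 5827 and 5615 in KO1, against 12710.5, 11022 and 10996 in WT (-1.02, SE 0.06, adjusted p 5.33e-08). Cyp51, the lanosterol demethylase, had 7248, 7505 and 7317 in KO1, against 14593, 13707 and 13913 in WT (-0.94, SE 0.06, adjusted p 1.28e-07). The groups were apart in each. Sqle fell by 0.65 and Lss by 0.57. The 2 members short of the threshold were Ebp (-0.23, adjusted p 0.0604) and Dhcr7 (0.17, adjusted p 0.0666).

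In the list of sterol sensing, uptake and efflux 5 of 19 tested genes rose and 9 fell. Srebf2 itself fell by 0.51, its retention factor Insig1 by 0.79, the HDL receptor Scarb1 by 0.56 and the sterol acyltransferase Soat1 by 0.89. Of the efflux pumps, Abca1 had 382, 368 and 392 in KO1, against 2.35, 6.21 and 0.903 in WT (6.74, SE 0.38, adjusted p 2.40e-08), and Abcg1 had 46.02, 86.5 and 59.02 in KO1 and 0 reads in each WT library. The groups stood far apart in both pumps. The core of the sterol response element, TCACNCCAC, was found in 1 of 16 synthesis genes with a promoter in the table (6.25%), in 0 of 14 handling genes and in 145 of 10283 tested genes (1.41%). The only match was in Hmgcs1 (chr13:119690101-119690400, plus strand), whose window is shown with the match in capitals.
Hmgcs1: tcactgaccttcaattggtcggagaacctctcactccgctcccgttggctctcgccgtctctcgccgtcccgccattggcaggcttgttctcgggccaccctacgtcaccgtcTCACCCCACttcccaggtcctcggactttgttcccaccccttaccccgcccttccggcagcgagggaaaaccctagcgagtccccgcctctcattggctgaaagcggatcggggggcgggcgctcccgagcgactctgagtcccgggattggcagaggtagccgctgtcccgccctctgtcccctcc

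Fatty acid synthesis, elongation and desaturation fell in 9 of 16 tested genes and rose in 2 (1 without KO1 replicate 3). Me1, the malic enzyme that supplies NADPH, fell to 1966, 2053 and 1892 in KO1, against 3485, 3378 and 3508 in WT (-0.81). Elovl4, an elongase of very long chains, fell to 80.3, 73.9 and 96.4 in KO1, against 345, 279 and 345 in WT (-1.94). The desaturases Fads1 and Fads2 fell by 0.75 and 0.67. Mitochondrial fatty acid oxidation held 6 genes that rose, a share near the 27.2% of all genes, and 2 that fell among 21 tested. Only 1 was lower without KO1 replicate 1, KO1 replicate 2 or WT replicate 2, and 3 were without KO1 replicate 3 or WT replicate 1. Beside Cpt1a (1.14) and Acaa2 (1.04), the carnitine transporter Slc22a5 rose by 0.71 and Etfa, an electron acceptor of the pathway, by 0.39.

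Within the cardiolipin pathway 3 of 11 tested genes rose and 2 fell, none by 2-fold or more. Upstream, Cds2, which makes CDP-diacylglycerol, had 3349, 3266 and 3462 in KO1, against 4097, 4057 and 3976 in WT (-0.27, SE 0.05, adjusted p 4.85e-04). Pgs1, which makes phosphatidylglycerol phosphate, rose by 0.20, a call that was lost with the 6 libraries alone (adjusted p 0.0508), without KO1 replicate 2 (0.18, adjusted p 0.062) and after the median difference of the 50 neighbouring genes on each side was subtracted (0.10, adjusted p 0.183). Of the remodelling enzymes, the transacylase Taz rose by 0.40 and the acyltransferase Lclat1 fell by 0.56, while the scramblase Plscr3 rose by 0.25. The call of Plscr3 was lost without KO1 replicate 1 (0.23, adjusted p 0.0668) and with neighbours' medians subtracted (0.15, adjusted p 0.117). Tamm41, Prelid1 and Ptpmt1, which make or carry the precursors, differed by -0.23 (adjusted p 0.0757), by -0.30 (adjusted p 0.151) and by -0.19 (adjusted p 0.455). WT replicate 1 was the lowest WT library in these 3 genes, and without it they were called lower, by 0.38, 0.55 and 0.47 with adjusted p of 6.17e-04, 8.43e-04 and 0.0112. Phosphatidylethanolamine and phosphatidylcholine synthesis held 3 genes that rose and 5 that fell among 13 (3 lower, without Ptdss1, with neighbours' medians subtracted). The choline kinase gene Chka had 2566, 2871 and 2787 in KO1, against 1536, 1379 and 1383 in WT (0.94), and Pisd, which makes phosphatidylethanolamine inside mitochondria, rose by 0.47. Ptdss1 (0.41), Pcyt2 (0.44) and Selenoi (0.29) fell by the log2 amounts in parentheses.

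RNAs encoded by the mitochondrial genome did not move in 1 direction. Of 12 tested, 1 was called higher and 4 lower (2 and 1 with quantile normalization, 2 higher without WT replicate 3). The messenger of cytochrome c oxidase subunit 1, mt-Co1, had 702335, 715878 and 695032 in KO1, against 564703, 571077 and 554753 in WT (0.32, SE 0.09, adjusted p 0.00982). That of cytochrome b, mt-Cytb, had 194692, 197092 and 188977 in KO1, against 247852, 261223 and 255872 in WT (-0.40, SE 0.07, adjusted p 4.09e-04). That of complex I subunit 1, mt-Nd1, had 141842, 143552 and 138547 in KO1, against 171638, 182507 and 177885 in WT (-0.33, SE 0.07, adjusted p 0.00129). The libraries did not overlap in these 3 genes, but with quantile normalization all 3 calls were lost, with differences of 0.00, -0.16 and -0.06. The large ribosomal RNA mt-Rnr2 fell to 12899, 12838 and 12348 in KO1, against 33811, 16825 and 26939 in WT, where the libraries varied widely.

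Nuclear copies on chromosome 1 share sequence with mt-Co2, mt-Co3, mt-Nd3 and mt-Nd4, and reads of the first 3 of these were counted mostly to the copy. Counted alone, mt-Co2 had 6191, 6549.6 and 11222 in KO1 and 7288, 5649 and 3804 in WT. With the copy added, which was chosen after seeing the data, mt-Co2 had 229021, 219457 and 216499 in KO1, against 216911, 244315 and 230271 in WT, a difference of -0.06 with an adjusted p of 0.573. The groups then overlapped. On the same sum mt-Co3 differed by -0.11 (adjusted p 0.252), while mt-Nd3 fell by 0.27 (adjusted p 0.00953). The copy of mt-Nd4 had almost no reads. For mt-Nd4 the difference was -0.18 (adjusted p 0.0474) and, with quantile normalization, 0.06 in the opposite direction (adjusted p 0.54).

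Genes of mitochondrial ribosomal proteins seldom rose. Of 79 tested, 4 rose and 22 fell, none by 2-fold, so that 32.9% were called against 53.6% of all genes and the share that fell was near that of all genes. The median was -0.08. Mrps2, of the small subunit, had 1738, 1764 and 1695 in KO1, against 2229.7, 2534 and 2539.7 in WT (-0.49, SE 0.06, adjusted p 2.38e-05). Mrpl16, of the large subunit, had 1126, 983 and 969.9 in KO1, against 1477, 1584 and 1532 in WT (-0.58, SE 0.08, adjusted p 7.96e-05). The groups did not overlap in either. WT replicate 1 bore on this count: without it, 2 rose and 42 fell, with a median of -0.21. Without WT replicate 2 or WT replicate 3, 8 and 10 were higher, with medians of -0.02 and -0.01, and without any 1 KO1 library 1 to 2 were.

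Factors of mitochondrial gene expression fell in 15 of 38 tested genes and rose in 2. Ptcd3, a protein of the small mitoribosomal subunit, had 3065, 3052 and 3108 in KO1, against 4451, 4582 and 4539 in WT (-0.56, SE 0.04, adjusted p 1.82e-07). The helicase Twnk fell by 0.54, the elongation factor Gfm1 by 0.45, the recycling factor Mrrf by 0.51 and the RNA-binding protein Fastkd3 by 0.84. Leaving out any 1 library gave 1 to 3 higher and 10 to 16 lower.

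Nuclear-encoded subunits of the respiratory chain and ATP synthase rose in 19 of 80 tested genes and fell in 4, with a median of 0.15. Only 28.8% were called, against 53.6% of all genes, and the share that rose was below the 27.2% of all genes. Uqcr10, of complex III, had 1665, 1596 and 1656 in KO1, against 779, 1038 and 1032 in WT (0.80, SE 0.11, adjusted p 5.37e-05). Cox7b2, a tissue-restricted subunit of complex IV, had 508, 465 and 506 in KO1, against 74.1, 139 and 117 in WT (2.20, SE 0.17, adjusted p 3.75e-07). The groups were apart in both. The list as a whole rested on WT replicate 1: without it 14 rose and 16 fell, with a median of -0.02, and without any 1 KO1 library 12 were higher and 2 to 3 lower. Among 29 genes of membrane insertion, import and cristae 4 rose (1 with the median of neighbouring genes subtracted) and 8 fell. Oxa1l, the insertase to which mitochondrial ribosomes dock, rose by 0.45 (0.28 with an adjusted p of 0.0546 after neighbours' medians were subtracted), and Oma1, a protease activated by inner membrane stress, rose by 0.54. Phb (0.79), Yme1l1 (0.50) and Immt (0.32) fell by the values given. Of 9 chaperones and proteases of the matrix and intermembrane space 4 rose, Hspa9 by 0.39 and Lonp1 by 0.26, and 3 fell, Clpx by 0.51. With neighbours' medians subtracted 2 of the 9 were higher and 2 lower.

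The integrated stress response, in which phosphorylation of eIF2 raises translation of ATF4 and hence its targets, was higher in 16 of 31 tested genes and lower in 3 (1 without KO1 replicate 3 and 0 with quantile normalization), with a median of 0.31 (0.19 without WT replicate 1). Ppp1r15a, the phosphatase subunit that ends the response, had 1854, 1807 and 1751 in KO1, against 816, 828 and 798 in WT (1.15, SE 0.06, adjusted p 5.04e-09). Sesn2, an inhibitor of mTORC1 signalling, had 2549, 2345 and 2351 in KO1, against 1231, 1307 and 1314 in WT (0.91, SE 0.05, adjusted p 2.46e-08). Chac1, which degrades glutathione, had 981, 896 and 921 in KO1, against 481, 554 and 575 in WT (0.80, SE 0.09, adjusted p 1.07e-05). No libraries overlapped between the groups in these genes. Atf5 (0.95), Cebpb (1.27) and Cbs (2.84) rose as well. The enzymes of serine and one-carbon synthesis Psat1, Phgdh and Mthfd2 fell by 0.26, 0.28 and 0.21. Other ATF4 targets did not pass: Asns differed by 0.06 (adjusted p 0.397) and Slc7a11 by 0.07 (adjusted p 0.746). Atf4 itself differed by 0.10 (adjusted p 0.434).

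An ATF4 element core, TGATGNAA, stood in 7 of 26 listed genes with a promoter in the table (26.9%), against 288 of 10283 tested genes (2.8%). Of the 7, 4 were called higher, none lower and 3 were not called. Sites of members that rose are given on the strand of the gene, with the match in capitals, each the core on the opposite strand.
Trib3 (chr2:152344034-152344051, minus strand): caggtTTACATCAgccgg
Pck2 (chr14:55540158-55540175, plus strand): caaagTTACATCAgtatc
Chac1 (chr2:119351044-119351061, plus strand): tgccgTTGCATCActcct

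Cytosolic aminoacyl-tRNA synthetases, many of them also targets of ATF4, fell in 11 of 20 genes and rose in 1 (2 higher without WT replicate 1, and 5 higher and 9 lower with quantile normalization). Farsb had 2013, 1959.8 and 1999 in KO1, against 2896, 2673 and 2742 in WT (-0.48, SE 0.06, adjusted p 1.49e-05). Kars fell by 0.36 and Dars by 0.51. Chaperones of the endoplasmic reticulum fell in 8 of 18 genes and rose in 2 (5 higher and 6 lower with quantile normalization). Pdia6, a disulfide isomerase, had 16082, 15294 and 15262 in KO1, against 41221, 37209 and 36228 in WT (-1.30, SE 0.07, adjusted p 1.14e-08), while Herpud1, of the degradation pathway, rose by 0.67. NRF2 targets of the oxidative stress response rose in 9 of 18 genes and fell in 3. The factor's own gene Nfe2l2 had 5739, 5523 and 5530.1 in KO1, against 3021, 2709.7 and 2748 in WT (0.99, SE 0.05, adjusted p 7.09e-09), Sqstm1 rose by 0.64 and Nqo1 by 0.52. Gsr, the glutathione reductase, fell by 0.66.

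Genes of DNA replication were lower as a group, with 32 of 38 tested genes lower, none higher and a median of -0.53. Leaving out any 1 library gave 29 to 32 lower. Mcm5, of the replicative helicase, had 3864, 3729.6 and 3590.3 in KO1, against 8188, 8046 and 8103 in WT (-1.12, SE 0.08, adjusted p 1.63e-07). Pcna, the sliding clamp, had 5098, 5259 and 4925 in KO1, against 9039, 9563 and 9215 in WT (-0.86, SE 0.07, adjusted p 4.30e-07). The groups were separate in both. Among 30 genes with a promoter in the table, the E2F site TTTCGCGC was in 6 (20%) and TTTGGCGC in 5 (16.7%), against 0.729% and 1.1% of tested genes.

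Among mitotic genes 13 of 30 were lower and 3 higher (9 to 12 lower without any 1 library, 5 higher with quantile normalization and 1 with neighbours' medians subtracted). Ccna2 fell by 0.43 and the checkpoint gene Mad2l1 by 0.43. A mixed list of p53 targets, G1 cyclins and inhibitors of cyclin-dependent kinases held 11 of 22 genes that rose. In the same list 2 fell (4 with neighbours' medians subtracted). Gadd45a, induced by DNA damage, had 757, 672 and 706 in KO1, against 166, 209 and 228 in WT (1.83, SE 0.12, adjusted p 6.40e-08). Cdkn1a, the p21 inhibitor, had 4442, 4341 and 4451 in KO1, against 3069, 3324 and 3244 in WT (0.46, SE 0.05, adjusted p 3.88e-06). Mdm2 rose by 0.55 and Sesn1 by 0.71. In these genes the groups did not overlap.

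Proteasome subunits fell in 18 of 36 genes and rose in 2 (25 lower without WT replicate 1). Psma2 had 3379, 3356 and 3304 in KO1, against 5169, 5874 and 5768 in WT (-0.74, SE 0.05, adjusted p 2.01e-07). Cytosolic ribosomal proteins mostly did not pass, with 4 of 81 higher and 11 lower. Without WT replicate 1, 32 were lower. Without WT replicate 2 or WT replicate 3, 10 and 15 were higher, without any 1 KO1 library 1 was, and with quantile normalization 14 were higher and 7 lower. Glycolysis and lactate genes fell in 10 of 24 and rose in 5. Gapdh had 23548, 22912 and 23372 in KO1, against 43750.4, 37339 and 41372 in WT (-0.81), and Ldha fell by 0.47. The tricarboxylic acid cycle held 8 genes that rose and 4 that fell among 22, all by under 2-fold (5 and 2 without KO1 replicate 3, 5 higher without KO1 replicate 2), and 2 of each after the median of neighbouring genes was subtracted. Hypoxia targets held 3 that rose and 4 that fell among 13, with Ndrg1 at 2.82 and the vasodilator gene Adm at -2.74. Imprinted genes held 5 and 4 of 14, and replication-dependent histones 1 and 3 of 12.

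Genes of the contractile cytoskeleton and targets of YAP fell in 14 of 26 and rose in 3 (5 higher without WT replicate 1, and 6 higher and 11 lower with quantile normalization). The YAP target Ccn2 had 3706, 3512 and 3242 in KO1, against 7339.6, 7638 and 7827 in WT (-1.13, SE 0.10, adjusted p 1.02e-06). Ankrd1 fell by 0.96. F3, the tissue factor that starts coagulation, had 1875, 1842 and 1822 in KO1, against 779, 809.7 and 864 in WT, and rose (1.18, SE 0.07, adjusted p 3.13e-08). TGF-beta and BMP genes split evenly, 12 higher and 14 lower of 41. Ltbp1, which stores latent TGF-beta in the matrix, had 2469, 2494 and 2302 in KO1, against 18727, 17583 and 17309 in WT (-2.88, SE 0.05, adjusted p 1.20e-12). Tgfb2 fell by 0.96, while the receptor Tgfbr2 rose by 0.49.

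Collagen chains went both ways, 11 higher and 13 lower of 28. Col3a1, a fibrillar chain, had 8004, 6653 and 9159 in KO1, against 156, 133 and 156 in WT (5.72, SE 0.12, adjusted p 5.85e-12). Col8a1, a network-forming chain, had 1312, 1300.2 and 1174 in KO1, against 7498, 6424 and 6320.3 in WT (-2.42, SE 0.09, adjusted p 4.10e-10). Each pair of groups was far apart. Of 41 glycoproteins and proteoglycans 17 rose and 13 fell. Fbln2 rose by 1.99 and Sparcl1 by 2.21, and the basement membrane linker Nid1 fell by 1.75 and Ecm1 by 2.08. Postn, a matrix protein of injured and growing tissue, had 357, 338 and 391 in KO1, against 0, 6.21 and 0.903 in WT. Metalloproteinases and their inhibitors leaned higher, 15 up and 4 down of 25. Timp3, a matrix-bound inhibitor, had 31246, 30122 and 29878 in KO1, against 9399, 8243 and 7974 in WT (1.84, SE 0.06, adjusted p 1.92e-10). The aggrecanases Adamts5 and Adamts15 rose by 1.20 and 4.58 and the membrane protease Mmp14 by 0.96.

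Adhesion and guidance genes were more often higher than lower. Of 69 cadherins and immunoglobulin adhesion molecules 35 rose and 9 fell (30 and 14 with quantile normalization). Cdh1, the epithelial cadherin, had 342, 338 and 369 in KO1, against 19.99, 13.5 and 19.9 in WT (4.24, SE 0.15, adjusted p 2.74e-10). Pcdh19 rose by 2.38 and Cdh26 by 5.28. Of 45 axon guidance genes 24 rose and 9 fell. Beside Slit2, the netrin receptor Unc5d rose by 5.78, and Sema3f, its receptor Nrp2 and Epha4 fell by 2.16, 1.79 and 1.56. Integrins rose in 12 of 25 genes and fell in 10. Itgb5, a vitronectin receptor chain, had 1573, 1539.8 and 1455 in KO1, against 7284, 7785 and 7972 in WT (-2.33, SE 0.07, adjusted p 1.44e-10), and Itga6, a laminin receptor chain, rose by 1.58.

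Signalling genes changed in both directions. Growth factors and receptor tyrosine kinases held 21 that rose and 12 that fell among 46. Fgf7, a factor that fibroblasts send to epithelium, had 1592, 1552 and 1467 in KO1, against 9479, 7769.7 and 7828 in WT (-2.44, SE 0.09, adjusted p 4.15e-10). Igfbp4, which binds insulin-like growth factors, had 1866, 1786 and 1951 in KO1, against 314, 358 and 387 in WT (2.40, SE 0.09, adjusted p 2.97e-10). Igf2r fell by 1.78 and Fgfr2 by 1.37, while Vegfa rose by 0.68. Of 18 Wnt genes 11 rose and 6 fell. Ror1, a Wnt receptor, had 924, 889 and 911 in KO1, against 76.4, 67.3 and 74.96 in WT (3.62, SE 0.08, adjusted p 5.26e-12), Lgr4 rose by 2.00, and Dkk3 had 11.8, 10.6 and 16.7 in KO1, against 463, 516 and 443 in WT (-5.11).

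Cytokines and chemokines rose in 9 of 22 genes and fell in 8 (5 without KO1 replicate 3). Il7, a lymphocyte growth factor, had 143, 129.8 and 128 in KO1, against 8.23, 6.21 and 10.8 in WT (3.86, SE 0.20, adjusted p 1.10e-08). Csf1, the macrophage growth factor, had 14185, 13672 and 13564 in KO1, against 32299, 26951 and 27402 in WT (-1.06, SE 0.09, adjusted p 9.83e-07). Cxcl5 rose by 1.71. G protein-coupled receptors held 26 that rose and 20 that fell among 62. The lipid receptor S1pr1 had 10781, 10774 and 10729.7 in KO1, against 3461, 3771 and 3678 in WT (1.57, SE 0.04, adjusted p 3.95e-11). The serotonin receptor Htr2a rose by 3.64 and Adgre5 fell by 2.82.

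Channels and transporters were among the largest lists. Of 61 ion channel genes 28 rose and 13 fell. The glutamate receptor subunit Gria1 had 142, 132 and 116 in KO1, against 1.18, 1.04 and 0 in WT, and the calcium channel Cacna1c fell by 1.36. Of 200 solute carriers 61 rose and 73 fell. The taurine transporter Slc6a6 had 4185, 4083 and 3807 in KO1, against 12553, 11841 and 11936 in WT (-1.59, SE 0.07, adjusted p 1.72e-09). The potassium-chloride cotransporter Slc12a7 had 34.2, 34.8 and 39.3 in KO1, against 435, 443 and 476 in WT (-3.61). All 6 tested genes of the aryl hydrocarbon receptor pathway were called, 4 higher and 2 lower. Of the lower genes, Arnt, which encodes the partner of the receptor, lost its call without any 1 KO1 library, without WT replicate 1, with the 6 libraries alone, with no filter, with quantile normalization and with neighbours' medians subtracted (-0.25 to -0.05, adjusted p 0.0528 to 0.646). Ahrr, the repressor of the receptor, lost its call as a higher gene with quantile normalization, with no filter and without KO1 replicate 1, KO1 replicate 3, WT replicate 2 or WT replicate 3 (0.09 to 0.40, adjusted p 0.0502 to 0.619). The receptor gene Ahr rose by 1.26 and its target Tiparp, which restrains the receptor, by 1.05. Aldh3a1, an aldehyde dehydrogenase, had 3244, 3055 and 3265 in KO1, against 35.3, 63.2 and 65.03 in WT (5.89, SE 0.17, adjusted p 6.27e-11), while Cyp1b1 had 85.6, 91.8 and 71.8 in KO1, against 6274, 5470 and 5869 in WT (-6.13).

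Transcription factors of several lineages differed, with 24 of 50 higher and 13 lower. Foxf1, a factor of visceral mesenchyme, had 888, 968 and 943 in KO1, against 24.7, 28.99 and 26.2 in WT (5.08, SE 0.09, adjusted p 1.20e-12). Tbx18, a factor of mesenchymal progenitors, had 1231, 1184 and 1158 in KO1, against 8292, 7682 and 8043 in WT (-2.75, SE 0.05, adjusted p 1.33e-12). Pparg, which directs fat cell differentiation, had 421, 424 and 420.0 in KO1, against 41.2, 34.2 and 40.6 in WT (3.42, SE 0.11, adjusted p 1.78e-10). No libraries overlapped between the groups in these 3 genes. Sox9 rose by 1.03 and Runx1 by 1.27, and Foxc1 fell by 2.31. Of 21 Hox genes 7 rose and 7 fell. Hoxa10 had 0, 0 and 0 in KO1, against 87.03, 79.7 and 92.1 in WT, while Hoxb6 had 111, 69.7 and 111 in KO1, against 3.53, 2.07 and 0.903 in WT. Hoxb3 and Hoxb5 were higher in KO1 too (4.94 and 4.66).

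Markers of other cell types were summed per library. Of 10 myoblast markers, 3 were tested, and the summed level of all 10 was 1688 to 1769 in KO1, against 77.6 to 111 in WT. The sum was mostly Myf5, beside Cdh15 (6.52) and Des (1.06), and Myod1 had 0 reads in both groups. Of 8 adipocyte markers 3 were tested, with a sum over all 8 of 7047 to 7443 in KO1, against 1687 to 1994 in WT. That sum was mostly lipoprotein lipase, Lpl, with 7005, 6803 and 6616 in KO1, against 1929, 1632 and 1692 in WT, while Cebpa had 0 reads in both groups and Fabp4 differed by -0.15 (adjusted p 0.738). Of 8 epithelial markers 3 were tested, with a sum over all 8 of 362 to 383 in KO1, against 98.8 to 116 in WT, carried by Cdh1, with Epcam and Cldn4 at 0 in both groups and Krt8 lower by 3.91. Endothelial markers summed to 287 to 339 in KO1, against 81.1 to 110 in WT, with Cldn5 at 0 in both. Macrophage markers summed to 1964 to 2124 in KO1, against 1809 to 2036 in WT, with Fcgr3 at 0 in both. Of 6 tested, 2 were higher and 2 lower (1 lower with the 6 libraries alone). The macrophage sum was mostly Lyz2, with 1830, 1851 and 1783 in KO1, against 1092.5, 1362 and 1385 in WT. Csf1r was lower, with 100.6, 141 and 64.9 in KO1, against 617, 444 and 531 in WT. Smooth muscle markers summed to 9654.5 to 10508 in KO1, against 12303 to 14002 in WT. Of 8 tested, 2 were higher and 4 lower. Markers of neurons or glia summed to 922 to 944 in KO1, against 249 to 264 in WT, with Snap25 at 0 in both. Those of bone or cartilage summed to 5363 to 5998 in KO1, against 4188 to 4578 in WT, with Ibsp at 0 in both. Of 4 tested for bone or cartilage, 2 were higher and 1 lower. Sox9 was higher, with 3721, 3827 and 3898 in KO1, against 1970, 1898 and 1756 in WT. Runx2 was lower, with 1571, 1796 and 2027 in KO1, against 2586, 2267.5 and 2458 in WT. The call of Runx2 was lost with neighbours' medians subtracted (adjusted p 0.0535). The part of other cell types in the differences above was not tested. In such bulk libraries, more cells of a type and more RNA per cell cannot be told apart.

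Differences were not spread evenly over the genome. The median difference was -0.22 on chromosome 13, -0.18 on chromosomes 3 and 17 and -0.12 on chromosome 6, and it was 0.18 on chromosome 7, 0.17 on chromosome 16 and 0.16 on chromosomes 4 and 10. On chromosome 13, 16.9% of 563 tested genes were higher and 44.6% lower, and on chromosome 7, 37.1% of 1112 were higher and 12.4% lower. Each KO1 library gave the same picture: against the mean of WT, chromosome 13 lay at -0.24, -0.22 and -0.24 in the KO1 libraries, against 0.07, -0.02 and -0.03 in the WT libraries. Chromosome 7 lay at 0.18, 0.19 and 0.17 in KO1, against -0.01, 0.01 and 0.00 in WT. The 2 groups did not overlap on either chromosome. Within chromosomes, medians over 50 neighbouring tested genes ranged down to -0.48 at chr17:37270220-46650139 (5 higher, 31 lower) and up to 0.51 at chr14:32513521-44315511 (26 higher, 4 lower). On chromosome 13 such medians for KO1 ran from -0.36 to -0.01 against WT, -0.11 to 0.26 against KO2 and -0.10 to 0.19 against KO3. For chromosome 7 the ranges were -0.004 to 0.38 against WT, -0.07 to 0.14 against KO2 and -0.035 to 0.27 against KO3. Crls1 lies on chromosome 2, where the median was -0.10. The stretch of 50 tested genes that holds it, chr2:130653960-142392966, had a median of 0.05. Copy number was not measured in these data.

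**Figure D5:**
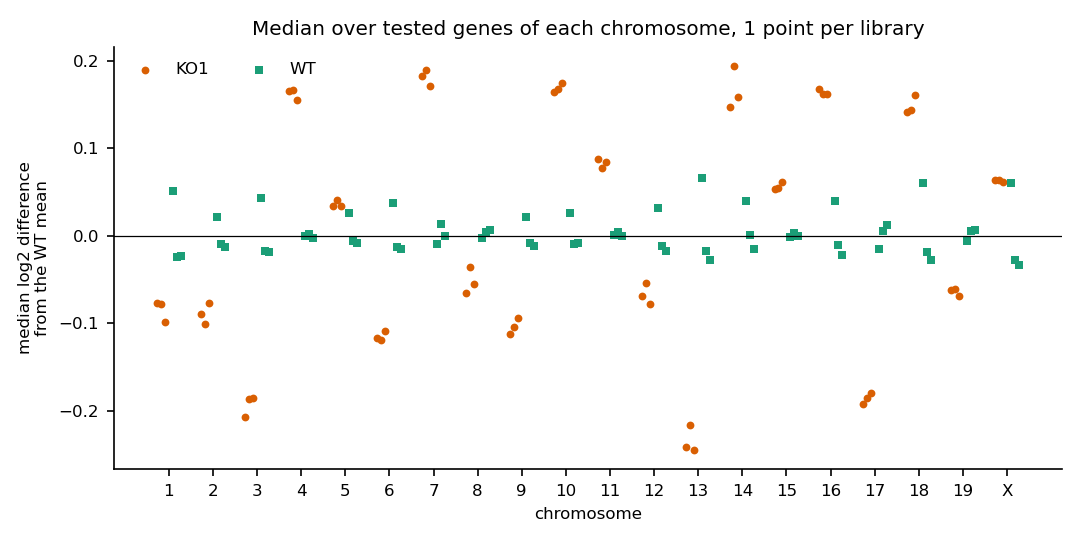
Median over the tested genes of each chromosome (x axis) of the log2 difference from the WT mean (y axis), with 1 point per library for KO1 and WT. WT points lie between -0.03 and 0.07, while KO1 points reach about -0.24 on chromosome 13 and 0.19 on chromosomes 7 and 14.

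Genes that set KO1 apart were sought by asking for a call in the same direction against WT, KO2 and KO3. This held for 777 genes higher in KO1 (5.38% of those tested) and for 441 lower (3.05%). With quantile normalization the counts were 719 higher and 781 lower. Slit2 averaged 0 ± 0 in KO2 and 0.71 ± 1.23 in KO3, and Myf5 0 ± 0 in KO2 and 0.292 ± 0.507 in KO3 (mean ± SD over 3 libraries, as below). Serpina1a averaged 159 ± 26.2 in KO2 and 142 ± 8.46 in KO3, and KO1 was higher by 6.37 than KO2 and by 6.51 than KO3 on the log2 scale. Ptprq, a receptor phosphatase, had 217, 225 and 223 in KO1, against 1.18, 0 and 2.71 in WT, and averaged 0 ± 0 in KO2 and 0.993 ± 0.101 in KO3.

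On the lower side, Xlr3a, an X-linked gene with close copies, had 47.1, 35.9 and 19.7 in KO1, against 1319.5, 923 and 905 in WT, and averaged 1142 ± 72.1 in KO2 and 1283 ± 172 in KO3. Agpat2, which makes phosphatidic acid, had 24.6, 14.8 and 17.7 in KO1, against 172, 214 and 227 in WT, and averaged 244 ± 20.4 in KO2 and 242 ± 8.76 in KO3. Egfl7, a secreted endothelial factor, had 14.98, 12.7 and 20.7 in KO1, against 199, 185 and 186 in WT, and averaged 239 ± 40.1 in KO2 and 195 ± 29.04 in KO3. In each of these genes KO1 was lower than every one of the other 3 groups by over 3 on the log2 scale. Crls1 was also lower in KO1 than in the other clones, which averaged 349 ± 21.1 in KO2 and 381 ± 23.9 in KO3: the difference was -0.73 from KO2 (adjusted p 3.19e-05) and -0.85 from KO3 (adjusted p 8.87e-06).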

How the data were processed

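Total RNA of NIH-3T3 cells was sequenced in 4 groups of 3 libraries. For each library the authors deposited normalized read counts, here treated as a signal. The tools named, per the submitters' processing notes, are Salmon 0.14.1, cutadapt and DESeq2 1.24.0 with build GRCm38 (mm10). Their settings and the strandedness of counting are not given there. In each library 99.94% to 99.99% of values were whole multiples of 1 step within 0.02, so whole reads were recovered, which may be rounded estimates. Per the file headers, the authors also deposited log2 fold changes of KO1 against WT with a standard error (used as a score) and p-values. There were 0 unused columns. Symbols and coordinates came from GENCODE M21 (GRCm38), which lacked 2 identifiers.

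Genes with at least 10 in at least 3 of the 6 KO1 and WT libraries were tested on log2(value + 1) with limma 3.58.1 in R 4.3.3 (trended prior, two-sided, Benjamini-Hochberg adjustment over 14448 genes, threshold 0.05). All 12 libraries entered 1 fit with 8 residual degrees of freedom, and contrasts of KO1 with KO2 and KO3 came from the same fit. These differences understate the change of weakly expressed genes. A group with 0 reads took a floor of 3 reads for all its libraries, and with 1 to 3 reads the ratio has an exact 95% counting interval. A gene silent in 1 group passed the filter only through the other. The count tests edgeR 4.0.16 and DESeq2 1.42.0 were run on the recovered reads as alternatives, beside pseudocounts, filters, scalings, a replicate block, subtraction of the median of 50 neighbouring genes on each side, each library left out, and the authors' table. The fits were tested on simulated data.

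Named genes are Crls1, the 20 higher and 20 lower with the largest difference and a mean of at least 100, the 8 and 8 with a mean of at least 5000, the 8 and 8 that differ most from all other groups, and up to 6 members of a list with the smallest adjusted p, with all cardiolipin and mitochondrial genes. Not every gene so chosen is described. Other list members, genes of runs and most genes with 0 reads in a group were named after their values were seen. The members and the gene lists were chosen with earlier results of these data known. Same-numbered KO1 and WT libraries did not deviate together, so the numbers were not taken as pairs.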

Additional observations from a re-analysis of the deposited data

Results flagged for a closer look

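The difference between the clones was itself tested with limma contrasts of KO1 against KO2 and KO1 against KO3. In 777 genes KO1 was higher than WT, KO2 and KO3, and in 441 genes it was lower than all 3, each at an adjusted p below 0.05. Slit2 and Myf5 are among the higher genes and Xlr3a and H2-K1 among the lower ones. With quantile normalization the counts were 719 higher and 781 lower. Leaving out any 1 library gave 657 to 880 higher and 323 to 534 lower.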

How the results depend on the processing

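The WT libraries and WT replicate 1 in particular set the limits of small differences, and fold changes of genes with a mean under 100 rest on few reads. The median difference of all genes stayed within 0.04 of 0 in every setting run. Higher and lower genes numbered 3967 and 3794 with edgeR, 3940 and 3914 with DESeq2, 3771 and 4279 with quantile normalization, 3629 and 3515 with the 6 libraries alone, and 3550 and 3550 after subtraction of neighbours' medians. Leaving out any 1 library gave 3478 to 4047 higher and 3303 to 3846 lower, 1379 to 1457 and 647 to 694 of them by at least 2-fold, and -2.01 to -1.90 for Crls1. At least 2-fold higher and lower genes were 2172 and 1026 with no filter and 778 and 443 with a mean of at least 50. With quantile normalization 1092 were at least 2-fold lower and 781 lower than in all other groups. Of 361 named genes, 338 kept direction and side of the threshold with quantile normalization and 332 with neighbours' medians subtracted. Quantile normalization turned mt-Nd4 to 0.0581 (adjusted p 0.54), and subtraction of neighbours' medians turned Wars to -0.0158 (adjusted p 0.843); the cause was not tested.

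The fit with replicate number as a block called 3789 higher and 3621 lower, 1415 and 681 by at least 2-fold. The deviations of same-numbered libraries correlated at r = 0.071, -0.06 and 0.011, so pairing is not supported by the data, and the block lost the calls of mt-Nd4, Hist1h2be and S100a4 among named genes.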

Other observations

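Genes of xenobiotic conjugation and ester hydrolysis were also found in runs of neighbours that were at least 2-fold higher in KO1. The UDP-glucuronosyltransferases Ugt1a6a, Ugt1a6b, Ugt1a7c and Ugt1a8 differed by 1.15, 1.17, 1.75 and 4.24 on the log2 scale, the carboxylesterases Ces2e, Ces2f, Ces2g and Ces4a by 1.37, 1.60, 2.72 and 1.64, and the glutathione transferases Gsta1 and Gsta4 by 1.73 and 1.31. Ugt1a genes share their last exons and the Ces2 and Gsta genes are close copies, so reads may be split among them. On chromosome 18, Pcdha1, Pcdha3, Pcdha9 and Pcdha12, alternative first exons of the clustered protocadherins that share their last exons, differed by 4.76, 4.09, 1.46 and 2.50. These genes were chosen after their values were seen.

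Unprocessed pseudogenes held 28 that were higher and 8 that were lower among 78 tested, with a median of 0.29. Transcribed unprocessed pseudogenes held 23 and 4 among 49, with a median of 0.58, against 0.01 over protein-coding genes. Such pseudogenes share sequence with the genes they derive from, and how reads were shared between them was not tested.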
